A study of Mus musculus with 18 samples.

Results

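The Bcl2 family and the initiator caspase of the mitochondrial death pathway were followed across 3 brain regions of mice given MPTP or saline. The set held 9 genes chosen by name, namely the effectors Bax and Bak1, the BH3-only genes Bid, Bcl2l11 (encoding Bim) and Bbc3 (encoding Puma), the survival genes Bcl2, Bcl2l1 (encoding Bcl-xL) and Mcl1, and Casp9. Of the 18194 genes named on the array, 8 were members, represented by 29 probe sets. No probe set carried the symbol Bax in the array annotation used, so Bax was not analysed here.

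In the mitochondrial pathway of apoptosis, BH3-only proteins respond to cell stress and either engage Bax and Bak directly or occupy the survival proteins Bcl-2, Bcl-xL and Mcl-1 that hold Bax and Bak in check. Activated Bax and Bak make the outer mitochondrial membrane permeable, and the cytochrome c that escapes assembles with Apaf-1 into the platform on which caspase-9 is activated. Much of this pathway is set at the level of protein cleavage, binding and location, which mRNA levels do not measure. In MPTP models, the pathway has been studied as a route by which dopaminergic neurons of the substantia nigra die.

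MPTP crosses into the brain, where glial monoamine oxidase turns it into a toxin that enters dopaminergic neurons through the dopamine transporter. Male C57BL/6J mice aged 14 weeks received MPTP at 30 mg/kg into the peritoneum once a day for 5 days, or saline, and were killed 4 days after the last dose. RNA of the frontal cortex, striatum and midbrain, in 3 biological replicates per region and treatment, was hybridised to 18 Affymetrix arrays. The 6 groups were therefore MPTP frontal cortex, MPTP striatum, MPTP midbrain, saline frontal cortex, saline striatum and saline midbrain, with 3 arrays each, all from animals without a genetic change named in the labels. The labels did not say whether arrays of the same number in different regions came from 1 animal, and the p-values measure the spread between these arrays.

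All values are on the log2 scale of the deposited RMA summaries, on which a difference of 1 is a doubling. The 18 arrays had medians of 5.14 to 5.21, and the correlation between arrays of a group was 0.991 to 0.997. Region markers followed the labels. The mean level of 4 dopaminergic neuron genes was 8.49 to 9.17 in the 6 midbrain arrays and 4.39 to 5.25 in the other 12 arrays, and that of 5 striatal spiny neuron genes was 10.8 to 10.9 in striatum. In midbrain, the dopaminergic list averaged 8.49 to 8.67 on the MPTP arrays and 8.75 to 9.17 on the saline arrays, and none of its 4 genes passed the test between treatments. Glial markers moved with treatment in striatum, where 4 of 8 astrocyte, 5 of 7 oligodendrocyte and 5 of 10 microglial genes tested were called higher after MPTP. Of all genes tested, 2.1% were called there in either direction. Striatal arrays also varied in cortical markers, and the mean of 4 cortical neuron genes ran from 4.35 to 5.93 on the MPTP striatum arrays and from 5.70 to 6.41 on the saline striatum arrays. In such tissue samples, fewer cells of a type and less RNA per cell cannot be told apart.

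The probe set of highest mean stood for each gene, and the test took in every gene whose average was 5.18 or more in any region, 5.18 being the median of all values. Of the 8 members, 6 were tested. Casp9, with a highest region mean of 6.57, lay nearest above that value, and Bbc3, at 5.17, lay just below it. Bak1 was further down at 4.11. A gene was called where its adjusted p in limma was below 0.05, with the adjustment made over 11741 genes.

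The upstream sequences of the 3 members that differed most between regions are given here, as RefSeq places their starts on GRCm38.p6. Each line holds the 250 bases before the start, 5′ to 3′ on the gene's strand. Capitals mark matches on either strand to GGGCGG (the GC box bound by Sp1), CCAAT and GTAAACA (the FoxO core). For Bid the window is chr6:120916825-120917074 on the minus strand, for Bcl2l11 it is chr2:128125788-128126037 on the plus strand, and for Bcl2 it is chr1:106714291-106714540 on the minus strand. RefSeq gives Bcl2l11 more than 1 start, and the most upstream one is shown. The annotated span of Bid reaches base 120917062, so most of the Bid window lies inside that span. The Bid start used is therefore not the most upstream end of the gene.
Bid: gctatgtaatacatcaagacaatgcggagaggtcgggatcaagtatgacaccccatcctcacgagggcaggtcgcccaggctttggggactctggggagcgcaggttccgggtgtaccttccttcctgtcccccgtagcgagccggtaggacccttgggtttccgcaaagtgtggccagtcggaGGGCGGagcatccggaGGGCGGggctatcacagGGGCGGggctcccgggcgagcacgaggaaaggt
Bcl2l11: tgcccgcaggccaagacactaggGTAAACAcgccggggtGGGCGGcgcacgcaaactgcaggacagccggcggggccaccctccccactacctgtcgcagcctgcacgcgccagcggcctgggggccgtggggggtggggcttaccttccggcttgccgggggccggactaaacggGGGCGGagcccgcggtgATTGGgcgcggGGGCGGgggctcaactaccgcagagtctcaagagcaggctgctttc
Bcl2: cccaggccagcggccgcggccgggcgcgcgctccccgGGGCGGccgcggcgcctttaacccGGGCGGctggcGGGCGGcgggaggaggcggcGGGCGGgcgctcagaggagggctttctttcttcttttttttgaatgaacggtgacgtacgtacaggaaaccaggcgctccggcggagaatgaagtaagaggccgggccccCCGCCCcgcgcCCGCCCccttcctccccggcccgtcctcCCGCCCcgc

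The Bid window held 3 GC boxes, at 66, 50 and 33 bases before the start used. The Bcl2l11 window held 3 GC boxes, a CCAAT box at 57 bases and a FoxO core at 227 bases before the start. The window of its other start, not shown, held 2 GC boxes, 2 CCAAT boxes and no FoxO core. The Bcl2 window held 7 GC boxes. Among 32851 windows of this length, 32.7% held GGGCGG, 33.8% held CCAAT and 3.17% held GTAAACA. The 3 windows shown held no CACGTG (an E-box, in 6.02% of windows) and no TGACGTCA (a CRE, in 1.55%). Nor did they hold TGANTCA (an AP-1 site, in 6.75%). The matches describe the letters of these windows and are not evidence of binding.

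**Figure D1:**
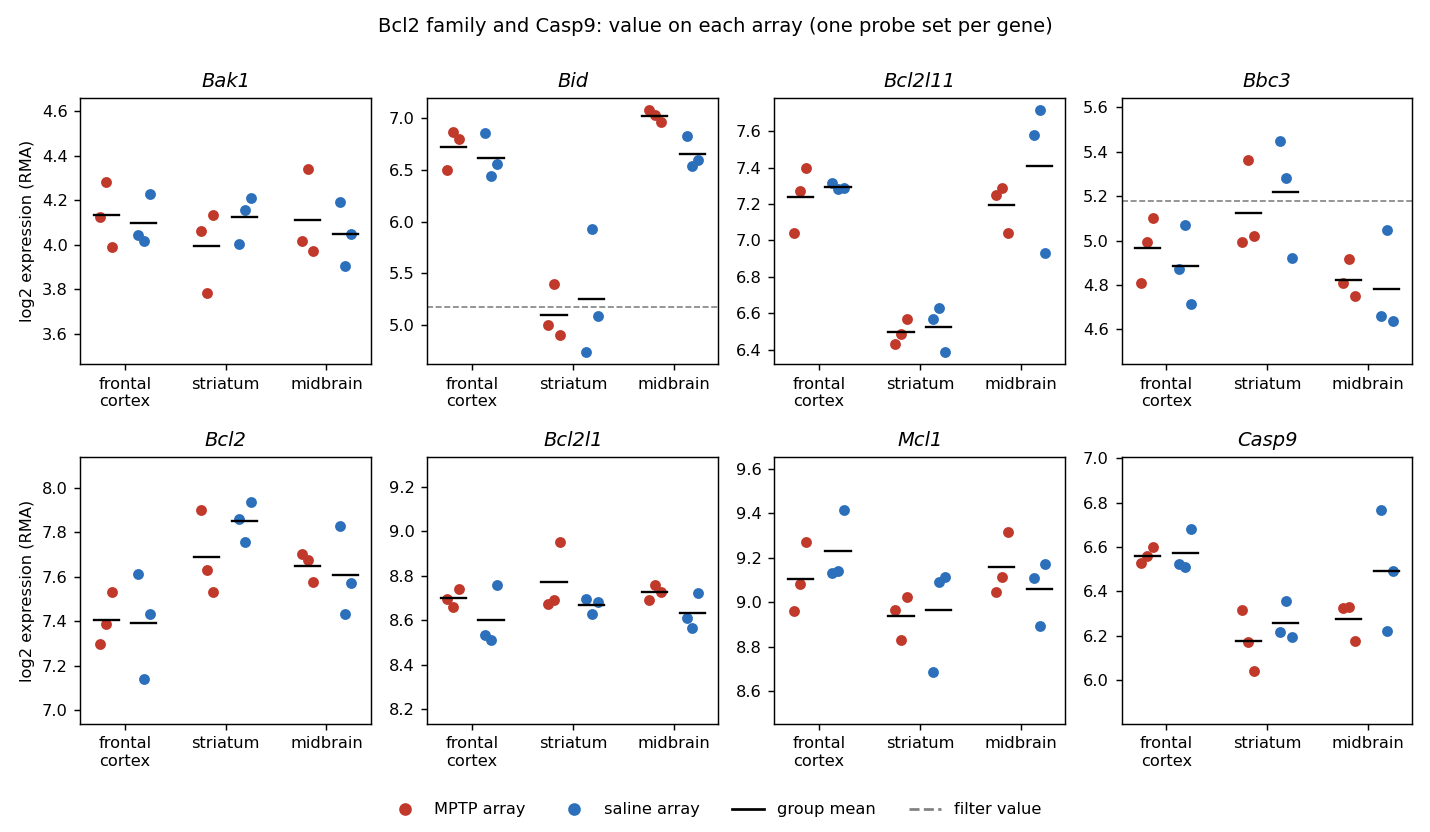
Log2 level of each of the 8 members on every array, with the 6 region-by-treatment groups along the horizontal axis, MPTP left of saline in each region, a black line at each group mean, a dashed line at 5.18 and a scale of its own in each panel. The 6 striatal arrays of Bid lie between 4.74 and 5.93, below every cortical and midbrain array.

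Members were called between regions and not between treatments, and Bid and Bcl2l11 differed most between regions. Calls between regions were common over all genes, at 44% to 59.1%, so such calls are not particular to the members. Bid and Bcl2l11 were lower in striatum than in frontal cortex and midbrain under both treatments. Casp9 was lower in striatum than in frontal cortex under both treatments, and Bcl2 was higher in striatum than in frontal cortex in saline mice.

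Counted over the 6 tested members, striatum minus frontal cortex gave 3 calls in MPTP mice, all lower, against 49.2% of all genes called in either direction. It gave 4 calls in saline mice, 3 lower and 1 higher, against 44% of all genes. Midbrain minus striatum gave 2 calls in MPTP mice, both higher, against 59.1% of all genes, and the same 2 genes, Bid and Bcl2l11, in saline mice, against 58.2%. Midbrain minus frontal cortex gave 1 call in MPTP mice, against 54.3%, and 0 in saline mice, against 51.3%. In that saline comparison 0 members had an unadjusted p under 0.05, beside 56.2% of all genes. These shares of all genes show how common such calls were. The comparisons of striatum with cortex and with midbrain share the striatal arrays.

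Bid encodes a BH3-only protein that is cleaved by caspase-8 and carries a death-receptor signal to mitochondria. Its level was 5.00, 5.40 and 4.91 in MPTP striatum, against 6.50, 6.86 and 6.79 in MPTP frontal cortex. In saline striatum it was 4.74, 5.93 and 5.09, against 6.85, 6.44 and 6.55 in saline frontal cortex. Striatum did not overlap with cortex under either treatment, and the array that came nearest was replicate 2 of saline striatum. The difference of striatum minus frontal cortex was -1.61 (SE 0.20, adjusted p = 2.79e-07) in MPTP mice and -1.36 (SE 0.20, adjusted p = 4.16e-06) in saline mice. Without replicate 2 of saline striatum the difference in saline mice was -1.70.

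Bid in midbrain measured 7.08, 7.02 and 6.96 in MPTP mice and 6.82, 6.53 and 6.59 in saline mice, above every striatal array. Midbrain minus striatum was 1.91 (SE 0.20, adjusted p = 1.22e-08) in MPTP mice and 1.40 (SE 0.20, adjusted p = 1.85e-06) in saline mice. In striatum, 2 of the 3 MPTP arrays and 2 of the 3 saline arrays lay below 5.18, where a level is not shown to be above background, so the size of these differences is uncertain. Bid passed the filter through frontal cortex and midbrain, since its mean over the 6 striatal arrays, 5.178, lay just under the filter value of 5.179. With that value in place of the MPTP striatum mean of 5.10, MPTP frontal cortex was 1.54 higher and MPTP midbrain 1.84 higher. A further Bid probe set, 1448560_at, gave the same direction, with striatum minus frontal cortex at -0.73 in MPTP mice and -0.57 in saline mice, both called when every probe set was fitted on its own. Its 6 striatal arrays, at 4.51 to 4.97, all lay below 5.18, so the size of these differences is uncertain too. The remaining Bid probe set, 1447873_x_at, stayed between 3.24 and 3.70 on the 18 arrays and showed no called difference.

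Bcl2l11 encodes Bim, a BH3-only protein that binds all the survival members and is known for its induction by FoxO and by Jun kinase signalling in neurons. Its level was 6.43, 6.49 and 6.57 in MPTP striatum, against 7.04, 7.27 and 7.40 in MPTP frontal cortex. In saline mice it was 6.57, 6.63 and 6.39 in striatum, against 7.31, 7.28 and 7.29 in frontal cortex. Again no striatal array reached the lowest cortical one. The difference of striatum minus frontal cortex was -0.74 (SE 0.14, adjusted p = 1.33e-04) in MPTP mice and -0.77 (SE 0.14, adjusted p = 9.86e-05) in saline mice.

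Midbrain levels of Bcl2l11 were 7.25, 7.29 and 7.04 in MPTP mice and 7.58, 7.72 and 6.93 in saline mice, so that replicate 3 of saline midbrain stood below the other two. Midbrain minus striatum was 0.70 (SE 0.14, adjusted p = 1.98e-04) in MPTP mice and 0.88 (SE 0.14, adjusted p = 1.11e-05) in saline mice. The probe set 1435448_at of Bcl2l11 was called in the same direction in these 4 comparisons. Its values were 5.31 to 5.84 over the 6 striatal arrays, 6.07 to 6.34 over the cortical arrays and 6.05 to 6.56 over the midbrain arrays.

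Bcl2, the founding survival gene of the family, had its highest group means in striatum in the probe set used. It measured 7.90, 7.63 and 7.53 in MPTP striatum, against 7.29, 7.39 and 7.53 in MPTP frontal cortex. The lowest of these striatal arrays, at 7.5313, lay just above the highest cortical one, at 7.5301. In saline mice it measured 7.86, 7.75 and 7.94 in striatum, against 7.61, 7.14 and 7.43 in frontal cortex, with no overlap. Striatum minus frontal cortex was 0.28 (SE 0.12, adjusted p = 0.0556) in MPTP mice, which missed the threshold, and 0.46 (SE 0.12, adjusted p = 3.25e-03) in saline mice. All 5 Bcl2 probe sets were higher in striatum than in frontal cortex in both treatments, by 0.12 to 0.28 in MPTP mice, with none called, and by 0.14 to 0.58 in saline mice, with 3 of them called. The difference between these differences was -0.17 (95% interval -0.53 to 0.18) and did not pass the test. A further Bcl2 probe set, 1422938_at, was called 0.58 higher in saline midbrain than in saline frontal cortex. Of the 29 member probe sets it was the 1 called there, beside 27.1% of all probe sets. It averaged 6.70 in saline midbrain and in saline striatum, and 6.12 in saline frontal cortex.

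Casp9, which encodes the initiator caspase of the apoptosome, measured 6.31, 6.17 and 6.04 in MPTP striatum, against 6.53, 6.56 and 6.60 in MPTP frontal cortex. Its levels were 6.22, 6.36 and 6.19 in saline striatum, against 6.52, 6.51 and 6.68 in saline frontal cortex. Both pairs were free of overlap. The differences were small, -0.38 (SE 0.12, adjusted p = 0.0101) in MPTP mice and -0.32 (SE 0.12, adjusted p = 0.0353) in saline mice. In MPTP mice, Casp9 was also lower in midbrain than in frontal cortex, with a difference of -0.29 (SE 0.12, adjusted p = 0.0477), a call that ended when any of the 6 arrays compared was left out and with the replicate number as a block (adjusted p = 0.0504). The call between striatum and frontal cortex ended in MPTP mice without replicate 3 of MPTP striatum (adjusted p = 0.0565), and in saline mice without replicate 1 or 3 of either region (adjusted p of 0.0521 to 0.136). With the mean over its probe sets Casp9 was called in none of these comparisons (adjusted p of 0.160 to 0.278). Of its other probe sets, 1426125_a_at was not called between regions, and 1457816_at averaged 5.15 in striatum and 4.99 in frontal cortex, the opposite order.

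The survival genes Bcl2l1 and Mcl1 varied little between groups. Bcl2l1, a main survival gene of mature neurons, lay between 8.51 and 8.95 on all 18 arrays, and its 6 group means spanned 0.17. Mcl1, whose short-lived protein restrains Bak, lay between 8.69 and 9.42, with group means spanning 0.29. In saline mice, Mcl1 in striatum minus frontal cortex was -0.27 (95% interval -0.50 to -0.03, adjusted p = 0.0620), and a further Mcl1 probe set, 1456243_x_at, was called at -0.29. For Bcl2l1, the largest region difference was 0.08 in the probe set used, and another, 1426191_a_at, was called at -0.32 in midbrain minus frontal cortex of MPTP mice.

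Bak1, an effector that permeabilises the mitochondrial membrane, stayed between 3.78 and 4.34 on the 18 arrays, all below 5.18. Bbc3, a p53 target that encodes Puma, measured 5.00, 5.36 and 5.02 in MPTP striatum and 5.45, 5.28 and 4.92 in saline striatum, against 4.64 to 5.10 over the 12 other arrays. In the fit without the filter, Bbc3 in midbrain minus striatum was -0.30 (SE 0.15, adjusted p = 0.119) in MPTP mice and -0.44 (SE 0.15, adjusted p = 0.0214) in saline mice. Of these 6 striatal arrays, 2 in MPTP mice and 1 in saline mice lay below 5.18, and so did every midbrain array.

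**Figure D2:**
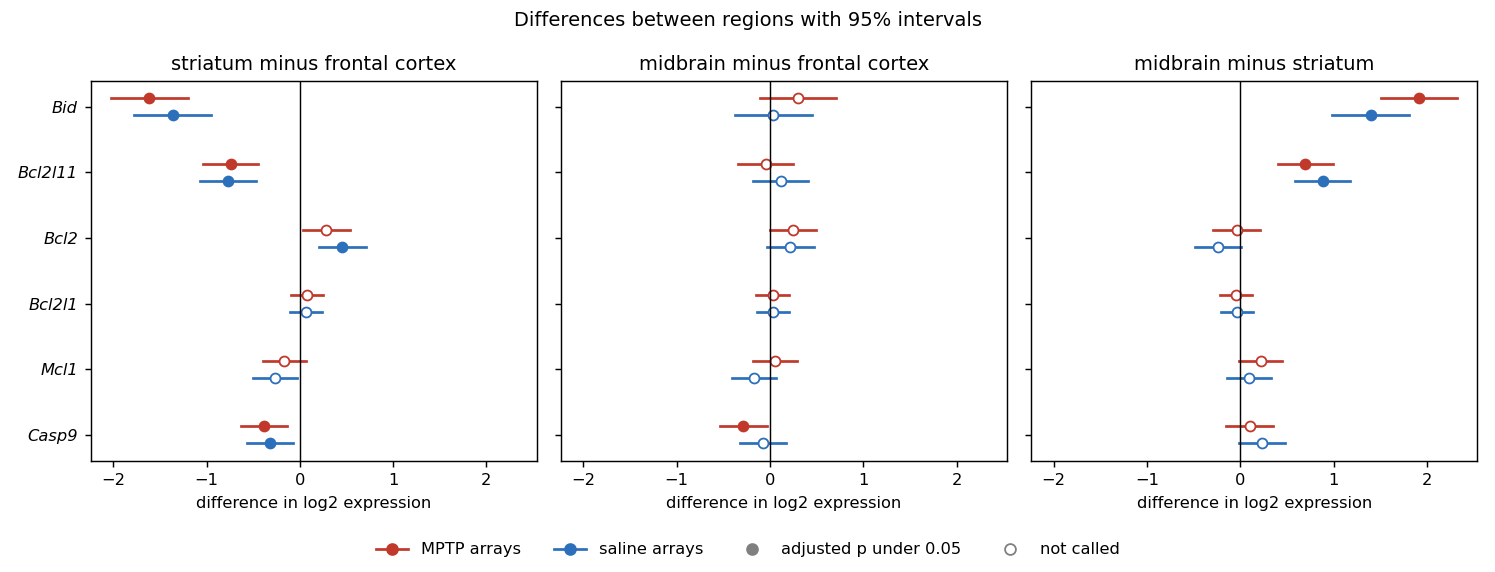
Log2 difference between regions for the 6 tested members, with MPTP mice above saline mice, lines for 95% intervals and filled points for called differences, for striatum minus frontal cortex, midbrain minus frontal cortex and midbrain minus striatum. Bid reaches -1.61 in MPTP mice and -1.36 in saline mice for striatum minus frontal cortex, whereas Bcl2l1 stays within 0.08 of 0.

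The regions also differ in cell makeup. The mean level of 7 oligodendrocyte genes was 10.99 to 11.05 in MPTP striatum and 10.56 to 10.60 in saline striatum, 9.19 to 9.49 over the 6 cortical arrays and 11.06 to 11.27 over the 6 midbrain arrays. The 6 pan-neuronal genes averaged 11.2 to 11.4 in striatum and 11.6 to 11.8 in frontal cortex, with 11.2 to 11.4 in midbrain. The part of these markers in the member differences was not tested.

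The group means of Bid, Bcl2l11, Mcl1 and Casp9 were lowest in the striatal groups, and those of Bcl2 and Bbc3 were highest there. Bid ran from MPTP midbrain, the highest, through MPTP frontal cortex, saline midbrain and saline frontal cortex to saline striatum and MPTP striatum. MPTP midbrain did not overlap with MPTP frontal cortex, nor saline frontal cortex with saline striatum, and the other neighbours in that order overlapped. Bcl2l11 ran from saline midbrain through saline frontal cortex, MPTP frontal cortex and MPTP midbrain to saline striatum and MPTP striatum, and its one break lay between MPTP midbrain and saline striatum. For Bcl2, Bcl2l1, Mcl1, Casp9, Bbc3 and Bak1, every group overlapped with the next in order.

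Among tested genes whose group means spanned at least 0.5, the patterns most like that of Bid belonged to Bag2, which encodes a co-chaperone of Hsp70, and Stmn3, which encodes a neuronal microtubule regulator. Each had a Pearson r of 0.999 with Bid over the 6 group means. The nearest to Bcl2l11 were Mindy2, a deubiquitinase gene, at an r of 0.998 and Nt5dc3 at an r of 0.995. These were the highest of all such genes, over 6 means measured on the same arrays, and are a description.

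No tested member passed the threshold between MPTP and saline in any region. In frontal cortex 0 of 6 were called, against 0.0681% of all genes. Striatum gave 0 of 6 against 2.1%, and midbrain gave 0 of 6 against 2.54%. For the mean over the regions 0 of 6 were called, against 9.04%. In each of these 4 comparisons limma also gave 0 members at an unadjusted p under 0.05. The shares of all genes that met it were 6.13%, 16.3%, 16.6% and 24.3%, in that order. The median difference over the 6 members was 0.0006 in cortex, -0.05 in striatum and 0.07 in midbrain. Over all genes tested it was 0.04 in cortex, -0.03 in striatum and 0.03 in midbrain.

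A p that misses the threshold leaves room for small changes, and the 95% intervals give their size. In frontal cortex they reached no further than -0.36 at the low end, for Mcl1, and 0.52 at the high end, for Bid. In striatum they lay between -0.56 for Bid and 0.28 for Bcl2l1, and in midbrain between -0.51 for Bcl2l11 and 0.78 for Bid.

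**Figure D3:**
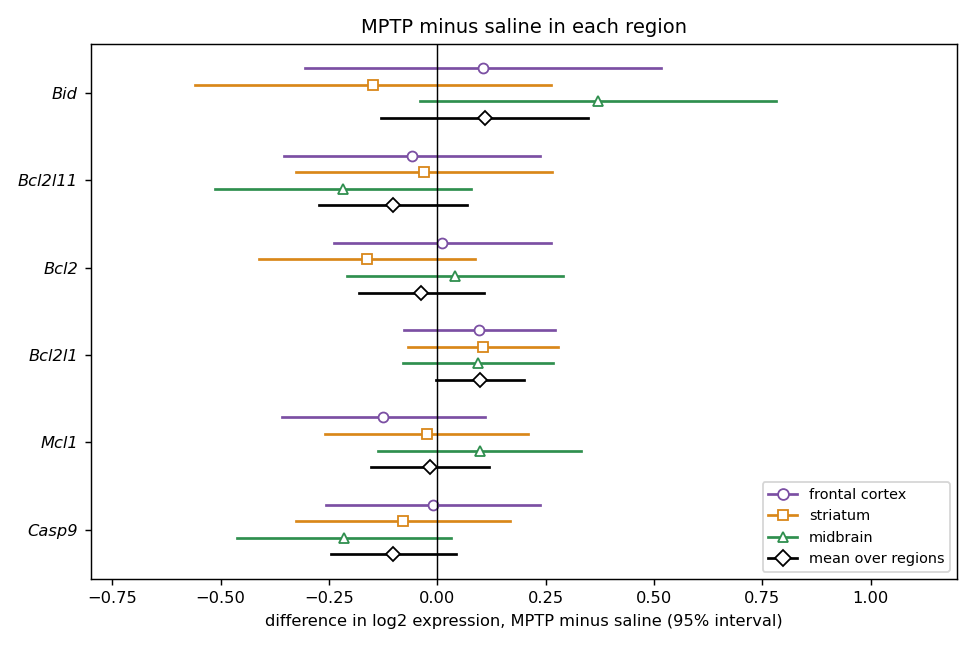
Log2 difference of MPTP minus saline for the 6 tested members in frontal cortex, striatum and midbrain and for the mean over regions, with 95% intervals. Every interval includes 0, and that of Bid in midbrain, from -0.04 to 0.78, reaches highest.

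Of the 6 tested members, Bid in midbrain had the largest difference between treatments. The 3 MPTP arrays, between 6.96 and 7.08, all lay above the 3 saline arrays, between 6.53 and 6.82. The difference was 0.37 (SE 0.20, 95% interval -0.04 to 0.78, adjusted p = 0.358). The probe set 1448560_at of Bid differed by 0.02 in midbrain. In striatum the Bid difference was -0.15 (95% interval -0.56 to 0.26), and without replicate 2 of saline striatum it was 0.19. In frontal cortex it was 0.10 (95% interval -0.31 to 0.52), with overlapping arrays.

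Bcl2l11 differed by -0.22 in midbrain (SE 0.14, 95% interval -0.51 to 0.08, adjusted p = 0.467), and its groups overlapped through replicate 3 of saline midbrain. Without that array the difference was -0.46, and with array weights it was 0.02. In striatum it was -0.03 and in frontal cortex -0.06. Casp9 differed by -0.22 in midbrain (SE 0.12, 95% interval -0.46 to 0.03, adjusted p = 0.377). Its levels there were 6.32, 6.33 and 6.18 on the MPTP arrays and 6.76, 6.22 and 6.49 on the saline arrays, which overlapped.

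Among the survival genes, Bcl2l1 was slightly above saline in each region, by 0.10 in cortex, 0.11 in striatum and 0.09 in midbrain, and by 0.10 over the regions (SE 0.05, 95% interval -0.0024 to 0.20, adjusted p = 0.217). Its values in midbrain were 8.69, 8.76 and 8.73 on the MPTP arrays and 8.61, 8.56 and 8.72 on the saline arrays. When its probe sets were averaged, the difference was -0.11 in striatum and in midbrain, so the probe set chosen set its direction. Bcl2 differed by 0.01 in cortex, -0.16 in striatum and 0.04 in midbrain. Mcl1 differed by -0.12, -0.02 and 0.10 in the same order of regions. Bak1 and Bbc3, fitted without the filter, differed by at most 0.13 in size in any region, with adjusted p-values of 0.731 or more.

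No member passed the test of a difference in response between regions. Striatum minus cortex gave 0 of 6 calls against 0.0596% of all genes, midbrain minus cortex 0 of 6 against 0%, and midbrain minus striatum 0 of 6 against 0.0681%. In all 3, limma gave 0 members at an unadjusted p under 0.05. Over all genes tested, 7.75%, 4.97% and 5.89% met it, in that order. Bid came nearest, with a response 0.52 higher in midbrain than in striatum (SE 0.28, 95% interval -0.06 to 1.10, adjusted p = 0.828).

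Probe sets beyond the one chosen per gene were examined by fitting each of the 45101 on its own. None of the 29 member probe sets was called for MPTP minus saline in a region or for the mean over regions. An unadjusted p under 0.05 was met by 0 of 29 in frontal cortex, where 6.94% of all probe sets met it, by 2 in striatum, where 11.4% did, and by 6 in midbrain, where 13.4% did. All 8 of these differences were below 0, and Bcl2l11 held 1 of those in striatum and 3 of those in midbrain. Of the 29 member probe sets, 15 were higher and 14 lower in midbrain, and 5 were higher and 24 lower in striatum. They belong to 8 genes, and the share of all probe sets lying lower was not counted. Over all genes tested, the median difference in striatum was also below 0, at -0.03. For the mean over regions an unadjusted p under 0.05 was met by 5 of 29, beside 19% of all probe sets. The smallest adjusted p there was 0.0704.

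In midbrain the smallest p-values belonged to Bcl2l11 and Bcl2. The Bcl2l11 probe set 1435449_at measured 4.17, 4.44 and 4.39 on the MPTP arrays, against 4.73, 4.92 and 4.60 on the saline arrays, a difference of -0.41 (SE 0.13, adjusted p = 0.115). Its groups did not overlap, and all its values were below 5.18. The Bcl2 probe set 1422938_at measured 6.16, 6.25 and 6.49 on the MPTP arrays, against 6.83, 6.46 and 6.82 on the saline arrays, which overlapped, a difference of -0.40 (SE 0.13, adjusted p = 0.129). All 5 Bcl2l11 probe sets were below saline in midbrain, with differences of -0.41 to -0.20, whereas the Bcl2 probe set of highest mean differed by 0.04. Of the 5 Bcl2l11 probe sets, 2 reached the filter, and these differed by -0.22 and -0.20. The probe sets of a gene share their RNA and are not replicates of it.

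**Figure D4:**
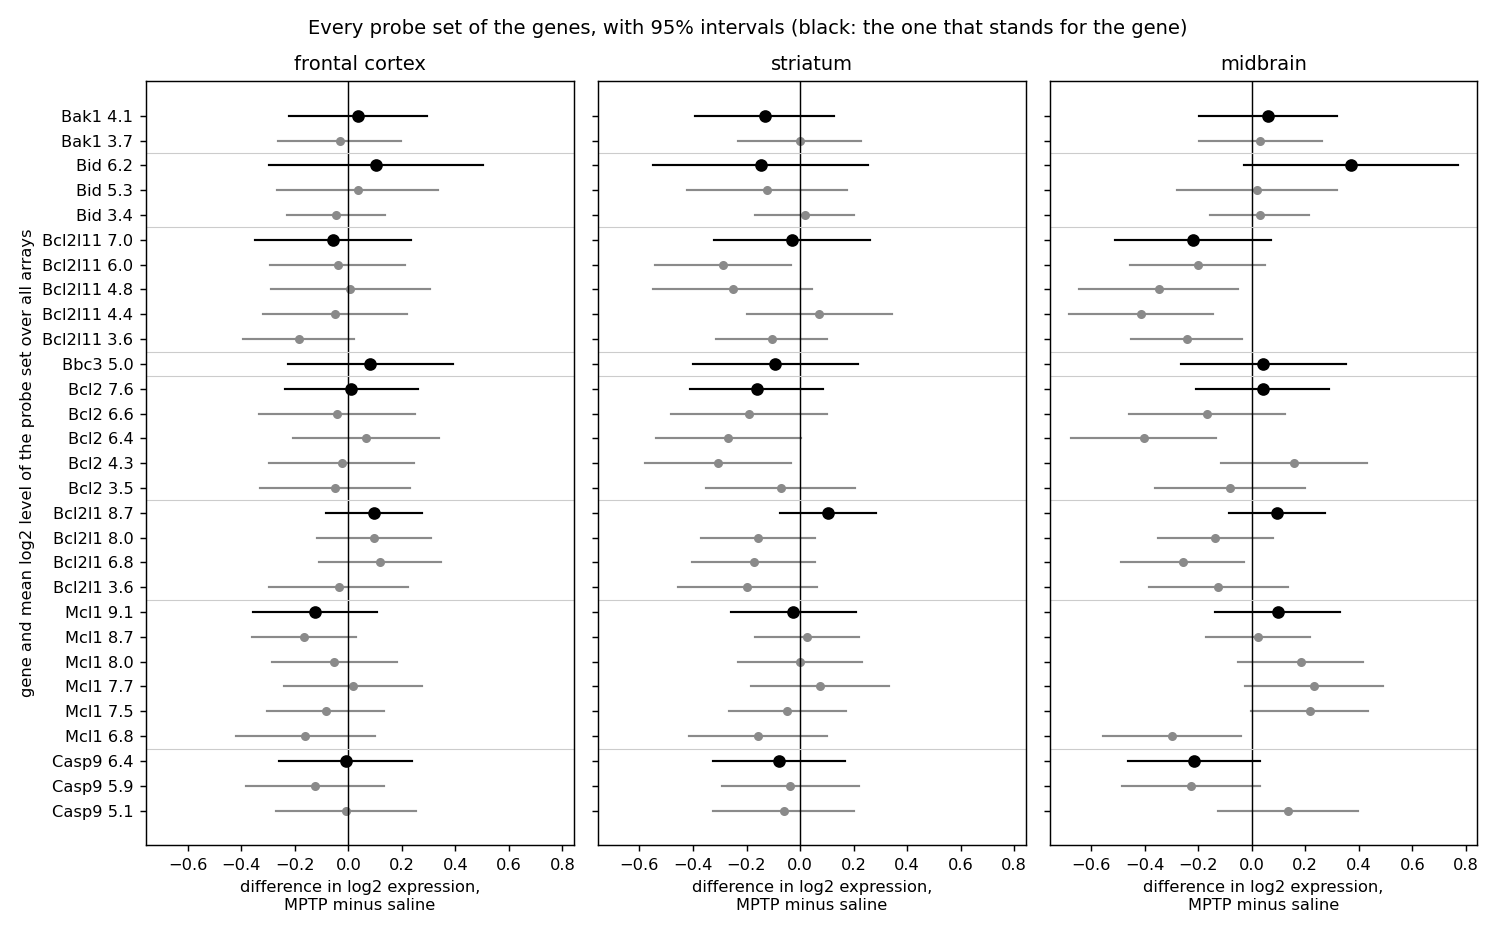
Log2 difference of MPTP minus saline for each of the 29 member probe sets with its 95% interval, in frontal cortex, striatum and midbrain. The vertical axis names the gene and the mean level of the probe set, and black points are the probe sets that stand for the genes. Differences run from -0.41 to 0.37 in midbrain, and none passed the adjusted threshold.

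Around the members, 74 other genes of the apoptosis pathways were listed in 6 groups, of which 65 were on the array and 49 were tested. MPTP minus saline gave 0 calls in frontal cortex (2 at an unadjusted p under 0.05), 0 in striatum (12), 2 higher in midbrain (8), and 3 higher and 1 lower for the mean over regions (11). Over all genes tested, the shares called are those given above for the members, and the shares at an unadjusted p under 0.05 were 6.13% in frontal cortex, 16.3% in striatum, 16.6% in midbrain and 24.3% for the mean over regions. The 4 of 49 called for the mean over regions stand beside 9.04% of all genes. The median difference of the 49 genes was 0.04 in frontal cortex, -0.02 in striatum, 0.04 in midbrain and 0.01 for the mean over regions, beside 0.04, -0.03, 0.03 and 0.01 over all genes tested. The core machinery and caspases, 10 of which were tested, the 8 other Bcl2 family genes, the 5 death receptor and adaptor genes and the 11 upstream stress kinases and factors held no called gene in these 4 comparisons.

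The calls in midbrain fell to 2 genes of the inhibitor of apoptosis list, of which 5 were tested. Birc6 encodes a giant ubiquitin-conjugating inhibitor of apoptosis. It measured 7.19, 7.16 and 7.24 in MPTP midbrain, against 6.83, 6.52 and 6.49 in saline midbrain, with no overlap. The difference was 0.58 (SE 0.11, adjusted p = 0.00795). It was called in 17 of the 18 alternative settings that tested it and missed the threshold without replicate 3 of MPTP midbrain (adjusted p = 0.0833). With the higher filter and with the mean over its probe sets, Birc6 fell below the filter and was not tested. Of its 6 probe sets, 4 were higher and 2 were lower after MPTP in midbrain, and the one used was the only one called.

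Xiap encodes an inhibitor that binds caspase-9 and the effector caspases. It measured 10.02, 10.06 and 10.14 in MPTP midbrain, against 9.90, 9.44 and 9.57 in saline midbrain, also with no overlap. The difference was 0.44 (SE 0.10, adjusted p = 0.0245), called in 13 of 20 alternative settings. Averaged over its 7 probe sets the difference was 0.05 (adjusted p = 0.827), and without replicate 2 of saline midbrain it was 0.34 (adjusted p = 0.108). The call also ended without replicate 3 of saline midbrain and without replicate 1 or 3 of MPTP midbrain (adjusted p of 0.0560 to 0.167). In striatum Xiap measured 9.84, 9.82 and 9.90 in MPTP mice, against 9.47, 9.49 and 9.55 in saline mice, a difference of 0.35 (SE 0.10, adjusted p = 0.0781). Birc6 in striatum differed by 0.26 (adjusted p = 0.220).

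Over the regions, Birc6 rose by 0.36 (SE 0.06, adjusted p = 0.00119) and Xiap by 0.32 (SE 0.06, adjusted p = 0.00181). The list of p53 and its targets, with 10 genes tested, gave 1 call in each direction. Ccng1, a p53 target that encodes cyclin G1, rose by 0.25 (SE 0.06, adjusted p = 0.00872). In striatum it measured 8.67, 8.38 and 8.50 in MPTP mice, against 8.03, 8.22 and 8.21 in saline mice, a difference of 0.36 (adjusted p = 0.0552). Gadd45a, a stress gene also induced by p53, fell by 0.36 over the regions (SE 0.08, adjusted p = 0.00721), a call that ended without replicate 2 of saline striatum (adjusted p = 0.0538). With all probe sets of each gene averaged, Xiap differed by 0.06 (adjusted p = 0.490) and Ccng1 by 0.16 (adjusted p = 0.116) over the regions. Birc6 was not tested in that setting. Without the saline array of narrowest interquartile range in every region, Ccng1 differed by 0.18 (adjusted p = 0.0504).

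Gadd45a in striatum measured 5.45, 5.41 and 5.34 in MPTP mice, against 5.91, 5.84 and 5.80 in saline mice, and in frontal cortex 5.62, 5.81 and 6.10 in MPTP mice, against 6.20, 5.88 and 6.47 in saline mice. The striatal groups did not overlap and the cortical groups did. The differences were -0.45 in striatum (adjusted p = 0.0936) and -0.34 in frontal cortex (adjusted p = 0.756). Jun, a transcription factor subunit acting downstream of Jun kinase, had the next smallest p in frontal cortex, with a difference of -0.23 (adjusted p = 0.780). In striatum its probe set of highest mean differed by -0.34 (adjusted p = 0.0792), and its other probe set, 1417409_at, was called at -0.69 (adjusted p = 0.0119) when all probe sets were fitted.

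**Figure D5:**
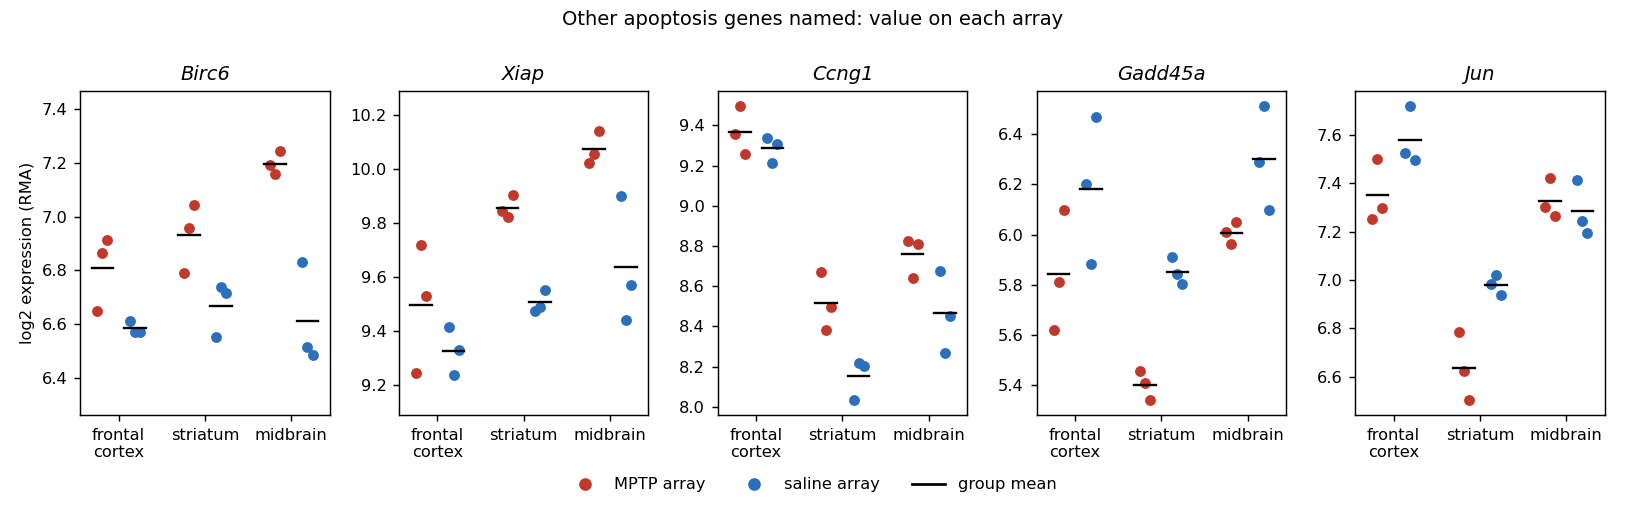
Log2 level on every array for Birc6, Xiap, Ccng1, Gadd45a and Jun, with MPTP left of saline in each region and a black line at each group mean. In midbrain the 3 MPTP arrays of Birc6, at 7.16 to 7.24, and of Xiap, at 10.02 to 10.14, lie above the saline midbrain arrays.

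Markers of cell type moved beside these results. In midbrain 2 of 8 astrocyte, 0 of 7 oligodendrocyte and 1 of 10 microglial genes were called higher after MPTP. Of all genes tested, 2.54% were called there in either direction. The microglial list averaged 8.06 to 8.38 on the MPTP midbrain arrays and 7.78 to 8.05 on the saline midbrain arrays, and the astrocyte list averaged 10.65 to 10.70 on the MPTP arrays and 10.36 to 10.57 on the saline arrays. In striatum the oligodendrocyte list averaged 10.99 to 11.05 in MPTP mice and 10.56 to 10.60 in saline mice. For the mean over regions, 4 of 8 astrocyte and 2 of 7 oligodendrocyte genes were called higher. So were 7 of 10 microglial and 3 of 7 endothelial genes, beside 9.04% of all genes called in either direction. The part of these markers in the differences of Birc6, Xiap, Ccng1 and Gadd45a was not tested.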

How the data were processed

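Total RNA of 18 tissue samples was hybridised to Affymetrix mouse arrays, 1 per sample (per the labels' protocols). The authors deposited log2 values per probe set from RMA (per the submitters' processing notes), version not given in the sources used here. This step removes a shift shared by all genes of an array. Of 45101 probe sets, 34958 named 1 gene (34754 through Entrez IDs in GRCm38.p6, 204 by the array's symbol), 932 several and 9211 none here. Genes with several probe sets took that of highest mean, and 11741 of 18194 genes reached the filter of 5.18, the 50th percentile. Limma 3.58.1 in R 4.3.3 fitted 6 group means over 18 arrays with an intensity trend and Benjamini-Hochberg adjustment per comparison, and the fit was tested on simulated data. The mean over regions had the animal, taken as treatment and number, as a random block (correlation 0.00558). The number of arrays limits the precision.

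The members, gene lists and tests were chosen with earlier results of these data known. All members were named, and of the other apoptosis genes those called in a treatment comparison, or the 2 of smallest p where none was. Genes most like a member were named where group means spanned 0.5. Deviations of same-numbered MPTP and saline arrays of a region correlated at -0.19 to 0.29 (3 of 9 over 0.1). Those of same-numbered arrays of a treatment in different regions correlated at -0.23 to 0.34 (11 of 18 over 0.1). In the main fit the number entered as a block for the mean over regions only. Comparisons between regions treated their arrays as independent, so any pairing by animal was not allowed for. The alternatives were 32 settings, 18 of which left out 1 array.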

Additional observations from a re-analysis of the deposited data

How the results depend on the processing

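No direction of a called result reversed in the 32 settings. The count of 0 members called for MPTP minus saline held in each region, for the mean over regions and for the 3 differences in response. A filter at the 75th percentile (7.33) leaves Bid, Bcl2l11 and Casp9 untested, and member calls then numbered 1 for striatum minus frontal cortex in saline mice and 0 for the same comparison in MPTP mice, as for midbrain minus striatum under either treatment. Leaving out 1 array gave 3 to 4 calls for striatum minus frontal cortex in MPTP mice and 3 to 5 in saline mice. For midbrain minus frontal cortex in saline mice, 1 member was called with quantile normalization a second time, with the mean over probe sets and with the array's interquartile range as a covariate, and 0 to 1 without 1 array. In MPTP mice, the same comparison gave 0 calls with no filter, the higher filter, the mean over probe sets, every probe set on its own and without any 1 array. It gave 2 with quantile normalization, array weights, the covariate and without the saline array of narrowest interquartile range in every region, and 3 with only the groups compared. With the replicate block it gave 0 calls. The labels do not say that numbers mark pairs, and 11 of 18 same-numbered pairs of regions correlated over 0.1.

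For the other apoptosis genes, MPTP minus saline in striatum gave 1 call with the higher filter, centring, the mean over probe sets, robust estimation, only the groups compared, the replicate block and without the narrow-range saline arrays. It gave 3 with quantile normalization, 5 with array weights, 4 with the covariate and 0 to 1 without 1 array. In midbrain it gave 1 with the higher filter, with no trend and without the narrow-range saline arrays, 4 with quantile normalization and 0 with the mean over probe sets. Without 1 array it gave 0 to 4, with 0 without replicate 3 of MPTP midbrain and 4 without replicate 1 of saline midbrain. For the mean over regions it gave 2 with the higher filter and the mean over probe sets, 8 with quantile normalization, array weights and the covariate, and 3 to 7 without 1 array, the 7 without replicate 2 of saline midbrain. Except where the higher filter or the mean over probe sets removed genes, the cause was not tested. The covariate and the fit without the narrow-range saline arrays were added after the data were seen. Depth cannot be given for arrays, and levels below 5.18 were not shown to be above background.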
